A study of Mus musculus with 67 samples.

Results

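The cells described here are 12 blastomeres of aphidicolin-treated mouse embryos whose chromosomes departed least from those of solvent-treated embryos. They were chosen by a measured value. For each cell the median log2 copy number of each of the 19 autosomes was taken, the median of that autosome over the DMSO cells was subtracted, and the SD over the autosomes was computed. The 12 Aphidicolin cells of lowest SD, of 47 Aphidicolin cells and 67 cells in all, are called near-diploid below. They were compared with the 20 DMSO cells for the pattern along the chromosomes and for small events that remained.

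The 67 cells were single blastomeres of BDF1 mouse embryos at the 8-cell stage, grown in vitro in CZB medium, and their DNA was amplified genome-wide and sequenced at low depth. During the 4-cell stage the embryos were exposed to 75 ng/ml aphidicolin or to DMSO, the solvent, without aphidicolin. The deposited metadata assign the 20 DMSO cells to 3 embryos and the 47 Aphidicolin cells to 6 embryos, and all cells share 1 batch label. Cells are named by treatment and library number and embryos by treatment and number.

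Aphidicolin blocks the replicative DNA polymerases, so that forks slow or stall and a cell may enter mitosis with stretches of DNA that are not fully copied. Single-cell replication sequencing reads the copy number along the chromosomes of a single cell. In S phase, regions that replicate early are already doubled while late regions are not, which gives the profile its highs and lows; a cell in which no region has a lead over another gives a flat profile. Gains and losses of chromosomes or chromosome arms at division lie on top of this pattern as steps.

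The 12 near-diploid cells came from 4 of the 6 treated embryos. Embryo Aphidicolin 1 gave cells 27, 29 and 32. Aphidicolin 2 gave cells 36, 39, 40 and 42. Aphidicolin 3 gave cells 43 and 48, and Aphidicolin 4 gave cells 52, 53 and 54. No cell of Aphidicolin 5 or Aphidicolin 6 was among them. Cells of 1 embryo share their origin, so every comparison with DMSO was made between means per embryo, 4 against 3. The smallest p that 35 splits of 7 embryos allow is 0.0286, and after Benjamini-Hochberg adjustment over the 8 measures tested at least 5 measures would have to reach it to pass 0.05.

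The SD that chose the cells ran from 0.10 to 0.25 on the log2 scale, with a median of 0.14. The last cell inside the limit was Aphidicolin cell 36 at 0.250, and the first outside were cell 55 at 0.255 and cell 65 at 0.279, so no gap separates the 12 cells from the rest. In the DMSO cells the same SD ran from 0.04 to 0.20 with a median of 0.06. DMSO cell 24 held the highest value and the next was 0.088, below all 12 near-diploid cells. The remaining 35 Aphidicolin cells lay between 0.25 and 0.88.

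The name near-diploid fits only some of these cells. Cells 27 and 29 showed no called gain or loss on any autosome. The 10 others carried between 1 and 9 called events, and in 5 of them a whole chromosome was gained or lost. Cell 43 had an extra chromosome 1 and cell 48 lacked a copy of it. Cell 39 had an extra chromosome 13 and cell 36 lacked a copy. Cell 54 held extra copies of chromosomes 4, 14, 17 and 18. These are what the SD measured, and are given as a description.

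**Figure D1:**
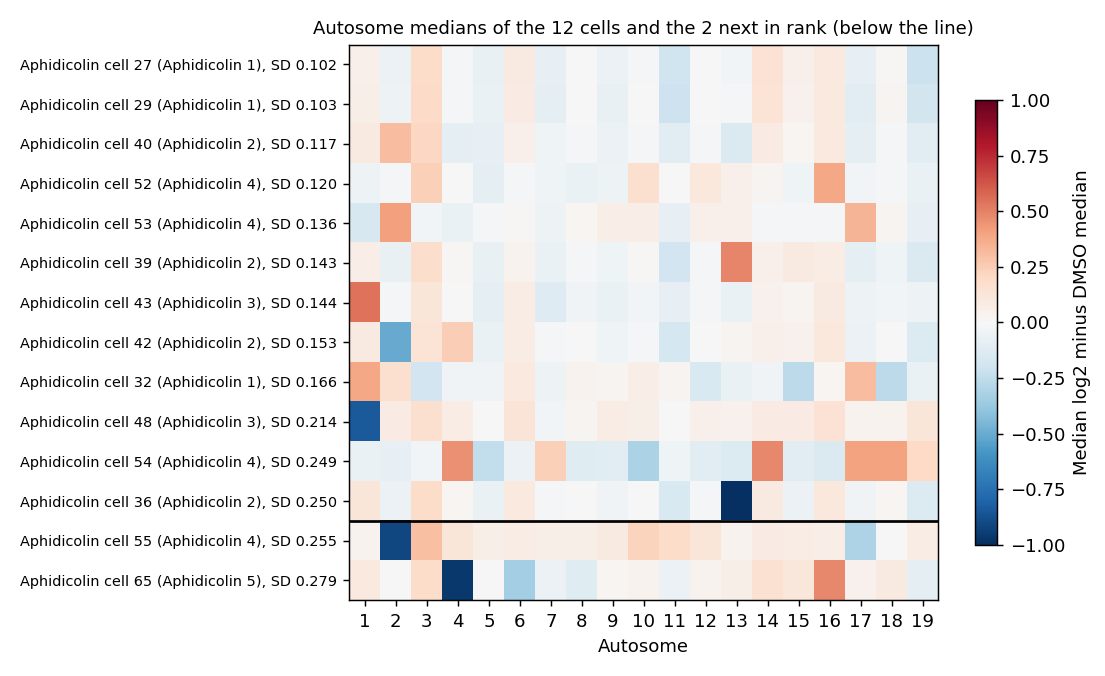
Median log2 of each autosome minus its median over the 20 DMSO cells (colour, values beyond ±1 shown at the end colours) in the 12 near-diploid cells, ordered by their SD, and in the 2 next cells below the line. Cells 27 and 29 are pale throughout, while single dark squares mark the gains and losses of chromosomes 1 and 13 in cells 43, 48, 39 and 36.

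Cells 27 and 29 still had an SD of 0.10, above 19 of the 20 DMSO cells. Their autosomes deviated in the same places. Chromosome 3 stood at 0.18 in cell 27 and 0.19 in cell 29, chromosome 11 at -0.20 and -0.21, and chromosome 19 at -0.22 and -0.18. After the part of the chromosome medians that follows the DMSO chromosome medians was regressed out, the SD was 0.02 in both cells, against a lowest value of 0.03 in DMSO cells. The DMSO medians of these chromosomes were -0.20, 0.24 and 0.18, so the deviations ran opposite to them, as in cells that lack the DMSO differences between chromosomes. With that pattern removed, 11 of the 12 cells would have been chosen again.

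The amplitude of the profile within chromosomes was measured as a slope. Each cell's 2394 windows of 1 Mb, with each chromosome's own median set to 0, were regressed on the mean DMSO profile made without the cell's own embryo; a slope of 1 means highs and lows as large as in DMSO and a slope of 0 a flat cell. The rule used chromosome medians only, but a flat cell also has other chromosome medians than DMSO. Over the 47 Aphidicolin cells the correlation of the slope with the SD was 0.212, and over the 12 cells it was 0.363. The slope also went with how far a cell's chromosome medians followed the DMSO medians, with a correlation of 0.866 over the 12 cells and 0.360 over the 47. The rule and the amplitude are therefore linked, and these values are given as a description because cells of 1 embryo are not independent.

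The near-diploid cells held both flat and patterned profiles, and Aphidicolin 1 held both kinds. In Aphidicolin 2 the slopes were 0.265 in cell 36, 0.308 in cell 39, 0.267 in cell 40 and 0.228 in cell 42. In Aphidicolin 1 they were 0.119 in cell 27, 0.132 in cell 29 and 0.914 in cell 32. These 6 cells below 0.5 kept the direction of the DMSO pattern at a small part of its size, while cell 32 of embryo Aphidicolin 1 lay within the DMSO range. In Aphidicolin 3 the slopes were 0.525 in cell 43 and 0.758 in cell 48. In Aphidicolin 4 they were 0.871 in cell 52, 0.846 in cell 53 and 0.921 in cell 54. All 3 cells of Aphidicolin 4 thus lay within the range of DMSO cells.

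DMSO slopes ran from 0.487 to 1.13 with a median of 1.01. Of the 20 DMSO cells, 2 were below 0.5, cells 23 and 24 of embryo DMSO 3, both at 0.49 when rounded. The 6 lowest near-diploid cells were flatter than every DMSO cell, the highest of them at 0.308, and the other 6 overlapped with DMSO. The embryo means were 0.388, 0.267, 0.641 and 0.879 for Aphidicolin 1 to 4 and 1.05, 1.03 and 0.818 for DMSO 1 to 3. Aphidicolin 4 lay above DMSO 3, so the groups overlapped. The mean of the treated embryos was 0.544 ± 0.273 (SD, n = 4) against 0.968 ± 0.130 (SD, n = 3), a difference of -0.424 that did not pass the test (exact two-sided permutation p = 0.0857, adjusted p = 0.229). Without cells 27 and 29 the difference was -0.292.

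**Figure D2:**
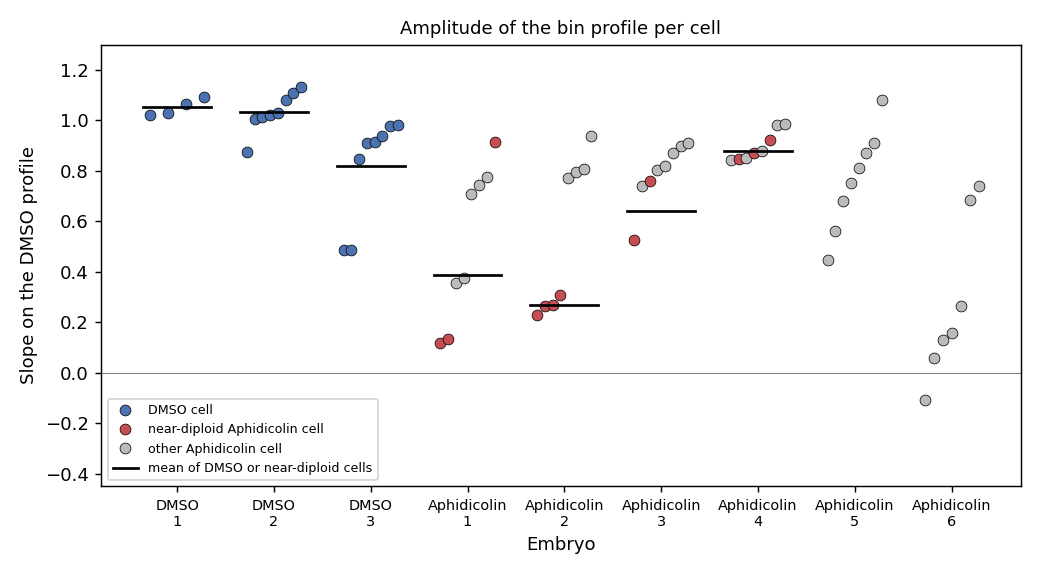
Slope of each cell on the DMSO profile (vertical axis, no unit) by embryo (horizontal axis), with the 20 DMSO cells, the 12 near-diploid cells and the other 35 Aphidicolin cells as points; horizontal bars are means of the DMSO or near-diploid cells of an embryo. The 4 near-diploid cells of Aphidicolin 2 lie between 0.228 and 0.308, and the other 4 cells of that embryo between 0.771 and 0.938.

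Within embryos, low amplitude and few large events went together in some cases only. In Aphidicolin 2 the 4 near-diploid cells were the 4 flattest, below the other 4 cells at 0.771 to 0.938. In Aphidicolin 1 cells 27 and 29 were the flattest of 8, and cell 32 was the steepest, the other 5 cells lying between 0.354 and 0.774. Cell 43 of Aphidicolin 3, at 0.525, lay below the 6 cells of its embryo that were not near-diploid, at 0.741 to 0.910. Cell 48 of that embryo, at 0.758, lay inside their range. In Aphidicolin 4 the near-diploid slopes of 0.846 to 0.921 lay inside the range of the other 5 cells, 0.842 to 0.986. Over all treated cells, 14 of 47 were below 0.5, of which 8 were not near-diploid.

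The amplitude was low on all autosomes of cells 27 and 29. Slopes of single autosomes varied more in the flat cells of Aphidicolin 2. They ran from -0.450 in cell 36 to 0.750 in cell 39, both on chromosome 15, where each of these cells had a called event. In cell 27 the slopes of single autosomes ran from 0.068 on chromosome 14 to 0.176 on chromosome 7, and in cell 29 from 0.056 on chromosome 19 to 0.275 on chromosome 7. X, which the rule did not use, gave slopes of 0.170 and 0.128 in these cells. Over the 12 cells the X slopes ran from 0.128 to 0.912 with a median of 0.423, against 0.334 to 1.18 and a median of 0.989 in DMSO cells, so the groups overlapped on X as well.

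The shape of the profile was compared by its correlation with the DMSO profile over the windows, which are neighbours on shared chromosomes and are not independent. The correlation was between 0.32 and 0.51 in the 6 cells with slopes below 0.5 and between 0.73 and 0.86 in the 6 others; DMSO cells ranged from 0.56 to 0.92. The embryo means were 0.631 ± 0.208 (SD, n = 4) and 0.863 ± 0.0419 (SD, n = 3), and the difference of -0.23 did not pass the test (exact two-sided permutation p = 0.171, adjusted p = 0.274). With equal noise, a smaller pattern also gives a lower correlation. When the cells of an embryo were averaged first, the correlation was 0.750 for Aphidicolin 1, 0.616 for Aphidicolin 2, 0.838 for Aphidicolin 3 and 0.904 for Aphidicolin 4, against 0.952, 0.922 and 0.945 for the DMSO embryos. The mean profile of all 12 cells correlated at 0.919 with the DMSO profile, at a slope of 0.549.

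Which end of the profile was reduced was read from the windows ranked by their DMSO level. In the lowest 20% of windows the DMSO cells had a median of -0.58 on the log2 scale (range -0.71 to -0.18) and in the highest 20% of 0.37 (0.25 to 0.59), relative to each chromosome's median. The 6 flat near-diploid cells had medians of -0.09 (range -0.11 to -0.07) and 0.15 (0.06 to 0.19), outside the DMSO ranges at both ends. The 6 others had medians of -0.39 (range -0.52 to -0.17) and 0.47 (0.36 to 0.51). In the low windows all 6 stood above the DMSO median, and the highest of them, at -0.170, lay just past the DMSO limit of -0.178. In the high windows all 6 lay within the DMSO range, and their median of 0.47 was above the DMSO median of 0.37.

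The upper share states this in a single value, the distance from the middle 20% of windows to the highest 20% as a percentage of the distance from the lowest 20% to the highest. It was computed for the 10 near-diploid cells whose highest and lowest groups differed by at least 0.2, which leaves out cells 27 and 29. In Aphidicolin 2 it was 69.6% in cell 36, 65.4% in cell 39, 70.2% in cell 40 and 61.7% in cell 42. In Aphidicolin 3 it was 67.9% in cell 43 and 60.7% in cell 48. In Aphidicolin 4 it was 40.4% in cell 52, 55.2% in cell 53 and 53.2% in cell 54, and in Aphidicolin 1 it was 55.2% in cell 32. In 9 of the 10 cells the upper side was thus the longer part of the profile.

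DMSO cells had upper shares from 27.6% to 72.3% with a median of 42%, and the flat DMSO cells 23 and 24 had 67.4% and 72.3%. The embryo means were 59% ± 7.98 (SD, n = 4) against 45.4% ± 9.44 (SD, n = 3). The difference of 13.6 percentage points did not pass the test (exact two-sided permutation p = 0.114, adjusted p = 0.229), and it was 6.99 points when the 16 Aphidicolin cells of lowest SD were taken.

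**Figure D3:**
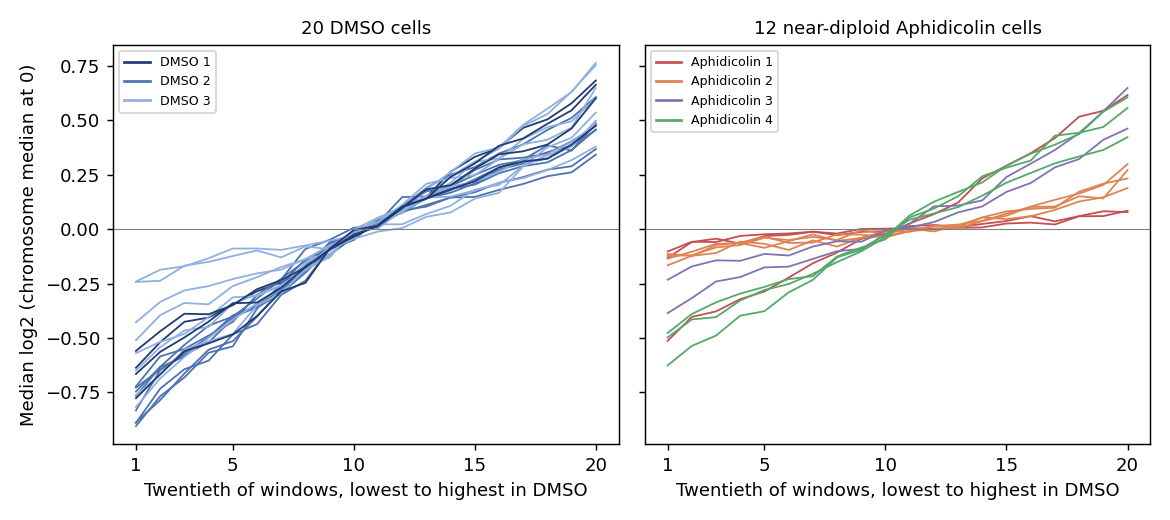
Median log2 of windows in 20 equal groups ranked by the DMSO profile (horizontal axis, lowest to highest), with each chromosome's median at 0 (vertical axis), for each DMSO cell and each near-diploid cell, coloured by embryo. The curves of Aphidicolin 2 and of cells 27 and 29 stay close to 0 at the low end, while those of Aphidicolin 4 and of cell 32 run as in DMSO cells.

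**Figure D4:**
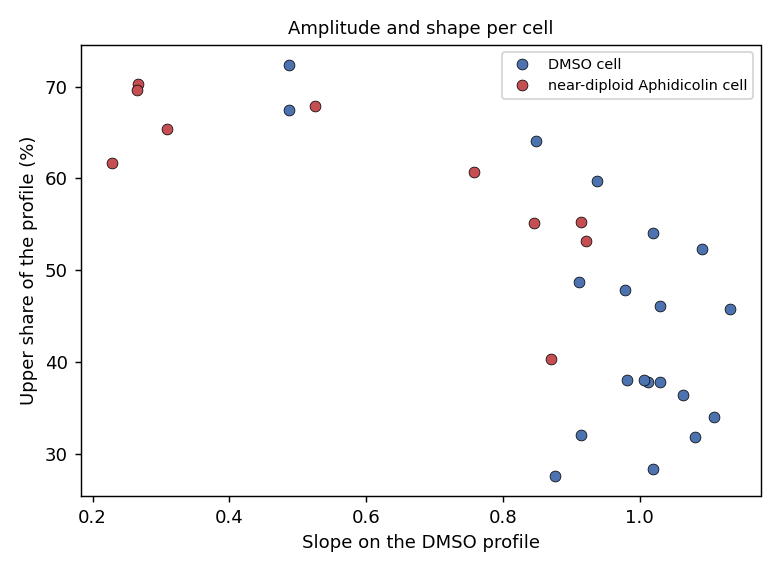
Upper share of the profile (vertical axis, %) against the slope on the DMSO profile (horizontal axis) for the 20 DMSO cells and 10 near-diploid cells. Cells with slopes up to 0.525, in both treatments, have upper shares of 61.7% or more.

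Single windows were then compared between the 4 treated and 3 DMSO embryo means with limma. Of 2394 windows, 0 differed at an adjusted p under 0.05 (0.0%); the lowest was 0.0636. At an unadjusted p under 0.05 there were 693 windows, or 28.9% of those tested. The embryo means of the groups did not overlap in 491 windows, or 20.5%. Leaving out Aphidicolin 4, the treated embryo of the highest slopes, gave 714 windows at an adjusted p under 0.05 by limma. Leaving out any other single embryo gave 0. A limma fit on cells, with a random block for the embryo, gave 495. That fit took a within-embryo correlation of 0.155, so cells of an embryo counted largely as separate. The count of 0 thus held in all leave-outs but that of Aphidicolin 4, and not in the fit on cells.

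The direction of these windows followed their place in the DMSO profile, which is in part built in, since the DMSO embryos enter both the ranking and the difference. In the lowest 20% of the DMSO profile, 397 of 479 windows had an unadjusted p under 0.05 and were higher in near-diploid cells, and 0 were lower. In the highest 20%, 82 of 479 were lower and 0 higher. The median of the embryo means in the lowest 20% was -0.24 in near-diploid cells and -0.52 in DMSO cells, and in the highest 20% 0.31 and 0.41. When each cell was divided by its own slope, 134 windows, or 5.60%, had an unadjusted p under 0.05, and 69 of them were among the 693. That division also multiplies the noise of the flat cells, which by itself can lower such a count. Whether windows differ at equal amplitude was therefore not tested by it.

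No window passed, so the 3 largest differences in each direction without overlap are named as values only. The window chr4:112000001-113000000 stood at 0.19, 0.22, 0.08 and 0.72 in Aphidicolin 1 to 4 and at -0.23, -0.39 and -0.11 in DMSO 1 to 3, a difference of 0.54 ± 0.13 (SE; limma adjusted p = 0.0636). It lies at the 33.3rd percentile of the DMSO profile, and in the treated embryos it was above the chromosome median rather than closer to it. The windows chr17:61000001-62000000 and chr17:82000001-83000000 are low in DMSO, at -0.71 and -0.58, and stood at -0.20 and -0.13 in near-diploid cells. Both lie within chromosome 17 gains called in cell 32 of Aphidicolin 1 and in cells 53 and 54 of Aphidicolin 4. The differences from DMSO were 0.50 and 0.45. When each cell's called chromosomes were treated as missing, they were 0.52 and 0.44. That setting also takes cells 32, 53 and 54 out on chromosome 17, so the part of those gains was not tested.

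In the other direction, chr3:138000001-139000000 averaged 0.29 in DMSO embryos and -0.10 in near-diploid cells. The window chr3:153000001-154000000 averaged 0.28 and -0.10, and chr4:139000001-140000000 averaged 0.35 and -0.01. All 3 are above the chromosome median in each DMSO embryo. In the near-diploid means they were below it in Aphidicolin 1 and 4, and the limma adjusted p was 0.0636 for each. The windows on chromosome 3 lie in segments lost in cell 32 of Aphidicolin 1 and cell 53 of Aphidicolin 4, and in the opposite segments of cells 40 and 42 of Aphidicolin 2. The differences were -0.31 and -0.27 on chromosome 3, and -0.40 on chromosome 4, when each cell's called chromosomes were treated as missing. No mm9 gene annotation was used here, so genes in these windows are not named.

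After the DMSO profile, scaled to each cell, had been taken out, the scatter that remained was compared. The residual spread, a robust SD, was 0.153 ± 0.0172 (SD, n = 4) after treatment against 0.172 ± 0.0200 (SD, n = 3) in DMSO (exact permutation, two-sided, p = 0.257, adjusted p = 0.327). The noise from window to window was 0.117 ± 0.0142 (SD, n = 4) against 0.135 ± 0.00890 (SD, n = 3; exact permutation, two-sided, p = 0.114, adjusted p = 0.229). Neither difference passed the test. Taken instead from single bins that do not overlap, without medians, the noise was 1.96 to 3.35 times the counting error in near-diploid cells and 2.75 to 4.49 times in DMSO cells. The authors' own noise score ran from 0.272 to 0.434 in the 6 flat cells and from 0.466 to 0.720 in the other 6, against 0.394 to 0.762 in DMSO cells.

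The groups overlapped in depth. The values allow between 1.53 and 2.56 M reads per near-diploid cell and between 1.49 and 2.88 M per DMSO cell, which gives counting errors of 0.05 to 0.06 and of 0.04 to 0.06 on the log2 scale for the median window. The flat cells held 1.53 to 2.44 M reads and the others 2.05 to 2.56 M. Embryo means were 2.16 ± 0.235 M (SD, n = 4) and 2.25 ± 0.119 M (SD, n = 3; exact permutation, two-sided, p = 0.743). Among cells in the shared range of reads, the difference in slope was -0.408.

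X was lower in all near-diploid cells than in any DMSO cell. Its median relative to the autosomes lay between -1.25 and -0.96 on the log2 scale in the 12 cells and between -0.39 and -0.14 in DMSO cells, or 0.841 to 1.03 copies against 1.53 to 1.81 if the autosomes are at 2. Embryo means were -1.08 ± 0.03 (SD, n = 4) and -0.26 ± 0.04 (SD, n = 3), with the smallest exact two-sided permutation p this design gives, 0.0286 (adjusted p = 0.229). The low X was not particular to the 12 cells. The other 35 Aphidicolin cells had a median of 1.00 X copies (range 0.003 to 2.19). Treatment and the number of X chromosomes cannot be told apart in any comparison of the near-diploid cells with the DMSO cells.

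Events were called on the profile after removal of the scaled DMSO pattern, as segments of at least 10 Mb above 0.32 (gain) or below -0.42 (loss) on the log2 scale, where a gain of 1 copy to 3 and a loss of 1 copy of 2 lie beyond these limits. The 12 cells held 44 events, 25 gains and 19 losses. Of these, 8 were whole chromosomes in 5 cells, 9 were segments of 50% of their chromosome or more in 6 cells, and 27 were small, covering less than 50% of it, in 8 cells. The larger events set the value the cells were chosen by, and only the small ones are compared with DMSO. The small ones are not free of the rule either: the chromosomes with the small events stood at 0.34 for chromosome 17 of cell 53 and at -0.32 for chromosome 10 of cell 54.

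Small events numbered 5 in cell 32, 4 each in cells 40, 42 and 53, 3 each in cells 36, 39 and 54, 1 in cell 52 and 0 in cells 27, 29, 43 and 48. DMSO cells had between 0 and 2. Embryo means were 1.67, 3.5, 0.0 and 2.67 in Aphidicolin 1 to 4 and 0.250, 1.25 and 0.750 in DMSO 1 to 3. The overlap comes from Aphidicolin 3, which had none. The mean was 1.96 ± 1.51 (SD, n = 4) against 0.750 ± 0.5 (SD, n = 3), and the difference of 1.21 events per cell did not pass the test (exact two-sided permutation p = 0.286, adjusted p = 0.327), which is not independent of the choice of the cells. The difference was 0.694 without Aphidicolin 2, 1.86 without Aphidicolin 3 and 2.04 without the 2 cells that had no call.

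One stretch made up many small calls in both treatments. Near chr12:18000001-25000000, 7 near-diploid cells had a 10-Mb call, a loss in all 4 cells of Aphidicolin 2 and a gain in all 3 cells of Aphidicolin 4. Of the 17 small DMSO events, 11 lay in this stretch, 8 losses and 3 gains. The median log2 over the stretch was -0.71 (range over the 8 cells -1.21 to -0.21) in Aphidicolin 2 and 0.72 (-0.24 to 1.40) in Aphidicolin 4. DMSO 2 stood at -1.09 (-1.35 to -0.63), while DMSO 1 and DMSO 3 stood at 0.47 and 0.53; each DMSO cell is set against the other DMSO embryos only, so a low DMSO 2 raises these values. All 8 cells of Aphidicolin 2 and all 8 of DMSO 2 thus lay below 0 here, and opposite calls within an embryo were absent among the near-diploid cells' calls in this stretch.

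The remaining 20 small events of near-diploid cells, a set described after its values were seen and so without a test, were 8 gains and 12 losses of 10 to 73 Mb (median 33.5 Mb) in 7 cells. Of these, 15 ran to the distal end of the chromosome, 3 began at its first window and 2 lay inside it. The DMSO cells had 6 small events outside the chromosome 12 stretch, of 10 to 13 Mb, in 5 cells. In 19 of the 20 events another cell of the same embryo carried the opposite event on the same stretch, and 0 of the 6 DMSO events had such a partner. Where both cells were near-diploid, the pair is counted from each of them.

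Opposite events within Aphidicolin 2 joined near-diploid cells to each other. In cells 36 and 39, chr1:181000001-197000000 was at 3.12 copies in cell 36 and 1.06 in cell 39. In the same pair chr15:69000001-103000000 was at 1.02 copies in cell 36 and 2.98 in cell 39, and the whole of chromosome 13 at 0.990 and 2.86. Cell 36 was the lower of the pair on chromosomes 13 and 15 and the higher on chromosome 1, so each of them held both gains and losses. Other cells of Aphidicolin 2 also had events over chromosome 13.

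Cells 40 and 42 formed a second such pair. The stretch chr4:3000001-57000000 was at 0.998 copies in cell 40 and 2.95 in cell 42. The stretch chr13:83000001-120000000 was at 1.00 and 2.86 copies. On the distal part of chromosome 2, from 92000001 in cell 40 and 91000001 in cell 42 to 181000000, cell 40 had 3.03 copies and cell 42 had 0.983. The distal part of chromosome 3 was gained in cell 40 (chr3:136000001-159000000, 2.94 copies) and lost in cell 42 (chr3:137000001-159000000, 0.946 copies). On these parts of chromosomes 2, 3 and 13 other cells of the embryo had gains or losses too. Cell 35 stood at -7.89 on the log2 scale over the chromosome 2 part, and cell 37 at -8.59 over that of chromosome 13.

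Both pairs had low slopes, 0.265 and 0.308 in cells 36 and 39 and 0.267 and 0.228 in cells 40 and 42. Cells 36 and 40, of different pairs, were closer to each other than either was to its partner, so the likeness was not particular to the pairs. Cells 43 and 48 of Aphidicolin 3 were opposite over the whole of chromosome 1, at 2.72 and 1.06 copies, and carried no other event. Their slopes were 0.525 and 0.758.

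The other near-diploid cells had their opposite events in cells outside the 12. Cell 32 was opposite to cell 28 of Aphidicolin 1. It was at 3.06 copies over chr2:126000001-181000000, where cell 28 had 0.988, and at 1.04 copies over chr3:86000001-159000000, where cell 28 had 3.0. Its losses over chr14:101000001-125000000, chr15:3000001-36000000 and chr18:66000001-90000000, at 0.975, 0.972 and 0.979 copies, stood against 3.31, 2.93 and 2.98 copies in cell 28. Cell 32 thus had both gains and losses against the same cell. Other cells of Aphidicolin 1 also had events on the stretches of chromosomes 2 and 18.

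Cell 53 was opposite to cell 55, the first cell outside the limit. Over chr3:137000001-159000000 cell 53 had 1.01 copies and cell 55 had 3.15. Over chr8:98000001-112000000 they had 2.87 and 1.07, and over chr17:51000001-95000000 3.14 and 1.04 copies. On chromosome 2 from 21000001 to 181000000, a segment of 160 Mb, cell 53 had 2.91 copies. Cells on both sides of the limit thus carried the 2 sides of the same events.

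Cell 54 was opposite to cell 58 of Aphidicolin 4, with 0.923 copies over chr10:86000001-129000000 against 3.15 in cell 58. Its loss over chr9:79000001-89000000, at 1.11 copies, was the single event of the 20 without an opposite call, although the most opposite cell, cell 58, stood there at 0.53 on the log2 scale. Cell 52 had no small event but the one on chromosome 12. Its larger gains of 73 Mb each, on chromosomes 10 and 16, were at 2.64 and 2.90 copies and stood against 1.04 and 0.974 copies in cell 56.

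Over all 44 events, 36 had an opposite event in a cell of the same embryo, 14 of them in another near-diploid cell, and in 34 both ends lay within 1 Mb. Those 14 are the same pairs counted from each of their cells, in these counts and in the sums that follow. The copies of the 2 cells summed to a median of 3.94 (range 3.66 to 4.29), where 2 cells with 2 copies each hold 4. Gains had a median of 2.90 copies and losses of 1.01. The correlation over windows of a cell's residual profile with that of its most opposite embryo mate was between -0.705 and -0.235 in the 10 cells with events. In 8 of them this was below every value with cells of the other Aphidicolin embryos. In cells 43 and 48, at -0.235, it was not, since values as low as -0.309 and -0.266 occurred with cells of those embryos. In cells 27 and 29 the lowest such value was 0.03 and 0.04, and their residual profiles correlated with each other at 0.525. That was within the range of near-diploid pairs of the same embryo with called chromosomes left out, 0.187 to 0.588 (median 0.440). DMSO pairs of the same embryo had a median of 0.316.

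**Figure D5:**
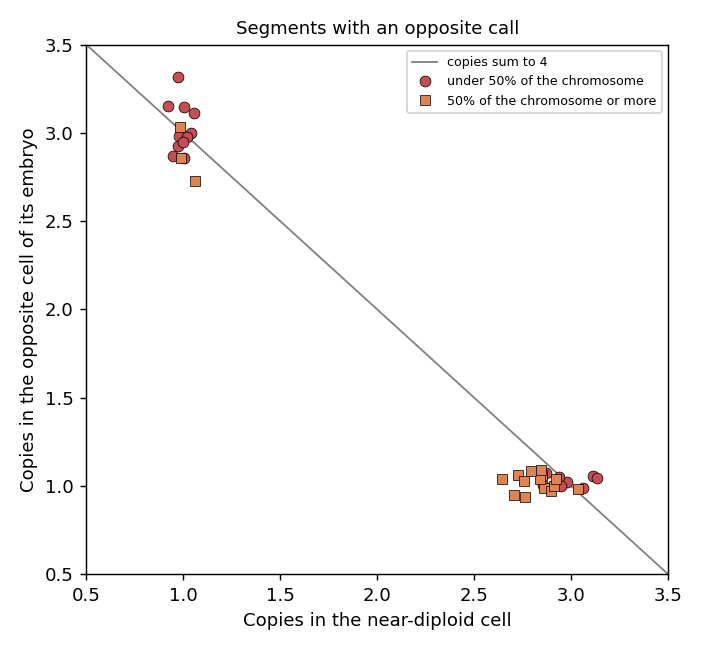
Copies in a near-diploid cell (horizontal axis) against copies in the opposite cell of its embryo (vertical axis) for the 36 events with an opposite call, circles for small events and squares for larger ones; the line marks a sum of 4. Points gather near 1 and 3 copies on both axes, with sums between 3.66 and 4.29; a pair of near-diploid cells that are opposite to each other gives a point on each side.

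The ends of the events that lay inside chromosomes, each counted once per embryo and with the chromosome 12 stretch left out, came to 26 breakpoints. Around them, over 4 windows, the DMSO profile had a median percentile of 55.6 among all windows, with a range from 13.9 to 94.2. Of the 26, 9 lay below the 50th percentile, 1 below the 20th and 3 at or above the 80th. The lowest was at 65000000 on chromosome 7 in Aphidicolin 4 and the highest at 86000000 on chromosome 3 in Aphidicolin 1. Averaging over 4 windows draws percentiles towards the middle, and places without a breakpoint were not measured in the same way. No preference for a part of the DMSO profile is therefore read from these counts.

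Cells 27 and 29 were searched for shorter events with a minimum length of 5 Mb. Cell 27 then had a loss over chr7:30000001-35000000 at -0.46 and cell 29 a gain over chr14:42000001-47000000 at 0.45 on the log2 scale, and nothing else was called. Cell 29 stood at -0.34 over the first stretch, where the medians of DMSO embryos were 0.27, -0.43 and 0.12. Over chr14:42000001-46000000 the 8 cells of Aphidicolin 1 ranged from 0.31 to 0.60 and those of Aphidicolin 2 from -2.01 to -0.80. On the second stretch the cells of these embryos did not overlap. At that minimum length the 12 cells had 35 small events and the 20 DMSO cells 32.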

How the data were processed

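Genomic DNA of 67 single cells was measured. The deposited tables hold log2 values per cell relative to that cell's median, in 13103 bins at 200-kb steps; the build is mm9, per the submitters' processing notes, while aligner and read filters were not given in the sources used here. Deposited metadata give a noise score and pass and filter marks as a score, and other columns (embryo, time window, batch), per the file headers. Every cell carried a pass mark.

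In each cell 100% of the values returned whole reads within 0.01 reads. The 12821 bins with a value in all DMSO cells gave 2394 autosomal 1-Mb windows; bins at 0 were set to 0.5 reads. Slopes were fitted by Huber regression (statsmodels). Change points were placed by penalised least squares (penalty factor 4) and neighbours within 0.35 merged. The reads are not independent molecules, so counting errors cover counting only. Tests were exact permutations over embryos and limma with Benjamini-Hochberg adjustment; embryos are separate by the metadata. Scripts were tested on simulated data. The 12 cells, measures and call limits were chosen with earlier results of these data known. Named windows were to be those passing limma, otherwise the 3 largest differences in each direction whose embryo means do not overlap; all small events were named.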

Additional observations from a re-analysis of the deposited data

Results flagged for a closer look

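Of 40 groups of 4 to 8 values checked, 2 held a value far from the others; chance flags about 1 in 20. The mean reads of the near-diploid cells of Aphidicolin 2, 1.81 M, lay below those of the 3 other embryos, the nearest at 2.25 M. Among the 4 cells of DMSO 1, cell 8 had 1.0 small event and the others 0.0. That event lay in the chromosome 12 stretch, where all 4 cells stood between 0.37 and 0.51 on the log2 scale. A single event among cells without any is always flagged by this check.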

How the results depend on the processing

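No paired analysis was possible because the library and embryo numbers link nothing between the treatments. The 8 measures kept their direction, and none passed adjustment, under all alternatives except as follows. The difference in residual spread was 0.00586 with the median of all DMSO cells as reference and 0.0346 with all 47 Aphidicolin cells, both of opposite sign to -0.0192. Leaving out each embryo in turn moved the difference in reads between -0.156 and 0.0293 M. The count of windows passing limma, 0 in the report, was 495 on single cells with a random block and between 0 and 714 when each embryo was left out in turn; the cause was not tested. The difference in slope ranged from -0.558 to -0.292, and from -0.535 to -0.331 with each embryo left out, where the smallest possible exact p is 0.05 or 0.0667. The difference in small events ranged from 0.783 per cell to 4.4, the latter with all 47 Aphidicolin cells, from 0.694 to 1.86 with each embryo left out, and was 3.21 with the DMSO profile removed unscaled. Leaving out cells 27 and 29, leaving out DMSO cell 24 and setting called chromosomes to missing were chosen after seeing the data. With 4 and 3 embryos, differences of the size seen could not pass adjustment unless most measures reached the smallest p.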
